A study of Rattus norvegicus with 10 samples.

Results

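The enzymes of amino acid breakdown and of the urea cycle were followed in the livers of rats on a high-fat diet with and without mulberry leaf. The group held 38 genes, named by their role in these pathways and each represented by 1 probe set of an Affymetrix rat array: of the probe sets annotated with that single symbol, the 1 with the highest mean log2(intensity + 16) was taken. All 38 listed genes had such a probe set, all 38 passed the filter on dim probe sets, and they stood among 10328 genes with a tested probe set and 31099 probe sets deposited in all.

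The livers came from 10 rats of the Wistar/ST stock, 1 array per rat, all on the high-fat diet for 7 weeks. Mulberry rats (n = 5) received 500 mg per kg body weight per day of dried leaf powder by gastric probe, and control rats (n = 5) received 0 mg per kg per day. The powder was suspended in 0.5% carboxymethylcellulose, which is listed at the same 0.5% for the control rats, and dosing followed an overnight fast. The labels give a daily dose beside a dosing rhythm that can be read in more than 1 way, so how often the rats were dosed and fasted is uncertain. Age, sex and the state of feeding at killing were not given in the sources used here. The question of the comparison is what the leaf powder does to transcript levels in the liver of rats fed this way.

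The liver is the main site at which amino groups are removed from amino acids and turned into urea. Nitrogen reaches the urea cycle as free ammonia, through carbamoyl phosphate synthetase, and as aspartate, while the carbon skeletons pass to glucose, ketone bodies or the citric acid cycle. Most of these enzymes are made in hepatocytes, many of them in cells near the portal vein, whereas glutamine synthetase and ornithine aminotransferase are concentrated around the central vein. Several are known to respond to glucagon, glucocorticoids and dietary protein.

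The members' probe sets were bright on these arrays, although brightness does not order the RNA amounts of different genes. Their mean log2 values lay between the 60.9th percentile (Gldc) and the 99.7th percentile (Hpd) among all genes tested, with a median at the 95.7th, and 30 of 38 stood in the top 10%. All 9 hepatocyte markers with a probe set (Alb, Ttr, Apoa1 and others) were above the filter, all 9 had a higher mean with mulberry (median log2 difference +0.039, 0 with an unadjusted limma p under 0.05), and their summed intensity was 262586 to 324543 in control and 263761 to 330939 in mulberry rats. In whole tissue, fewer cells of a type and less RNA per cell cannot be told apart. The neutrophil list had a probe set for 2 of its 5 markers, both with lower means under mulberry (summed intensity 268 to 366 in control and 114 to 273 in mulberry rats), and 6 of 8 macrophage markers had higher means (13626 to 22667 and 10829.6 to 19463). In each of these lists 2 markers had an unadjusted limma p under 0.05. The lists of lymphocytes, endothelium, stellate cells, bile duct and red blood cells had 0 such markers, no list held a marker past an adjusted p of 0.05, and none was at the lowest value of the table. Of the markers listed, only 3 of 7 for lymphocytes and 2 of 5 for bile duct were above the filter and tested. The part of other cell types in the members' values was not tested. RNA integrity, read as the log2 3′ over 5′ signal of Gapdh, averaged 0.22 ± 0.16 for controls and 0.21 ± 0.13 for mulberry (SD, 5 rats each, two-sided exact permutation p = 0.913). The same measure for beta-actin was higher, at 1.77 ± 0.22 and 1.64 ± 0.27 (exact permutation p = 0.405), with the lowest ratio, 1.29, in mulberry rat 4.

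No member's transcript level differed between the groups beyond the spread between rats. With limma, 0 of 38 members passed an adjusted p of 0.05 (Benjamini-Hochberg over all 18625 probe sets tested, of which 0% passed), and every adjusted p was 0.9999. At an unadjusted p under 0.05 there were 0 members, against 1.79% of all genes and 1.74% of all probe sets tested. Control and mulberry rats overlapped in all 38 members, where 0.32% of all genes had groups that did not overlap. Of the members 20 had a higher and 18 a lower mean in mulberry rats, and the share of higher means was 51.3% over all genes. The median log2 difference, mulberry minus control, was +0.0019 over the members and +0.0035 over all genes tested. The median size of a difference was 0.048 for members and 0.083 for all genes, with a median standard error (SE) of 0.11 and 0.15. The members were brighter than most genes, and these values are not given for genes of like brightness. They do not show that the members were steadier than such genes. The count of higher means dropped to 8 of 38 without mulberry rat 1 and to 12 of 38 when the arrays were shifted to a common median. That shift moves the difference of every gene by the same amount. The share over all genes under these 2 settings is not given, so the drops cannot be read as particular to the members.

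The 95% confidence intervals set limits on what could have gone unseen. All 38 intervals held 0, and all 38 lay within 1 log2 unit on either side. For 29 members the interval lay within 0.5, and for 13 members within 0.25. The 9 members whose interval reached past 0.5 were Got1, Gpt, Kynu, Bhmt, Cth, Hal, Aass, Prodh and Gldc. These intervals were computed gene by gene and are not corrected for their number.

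**Figure D1:**
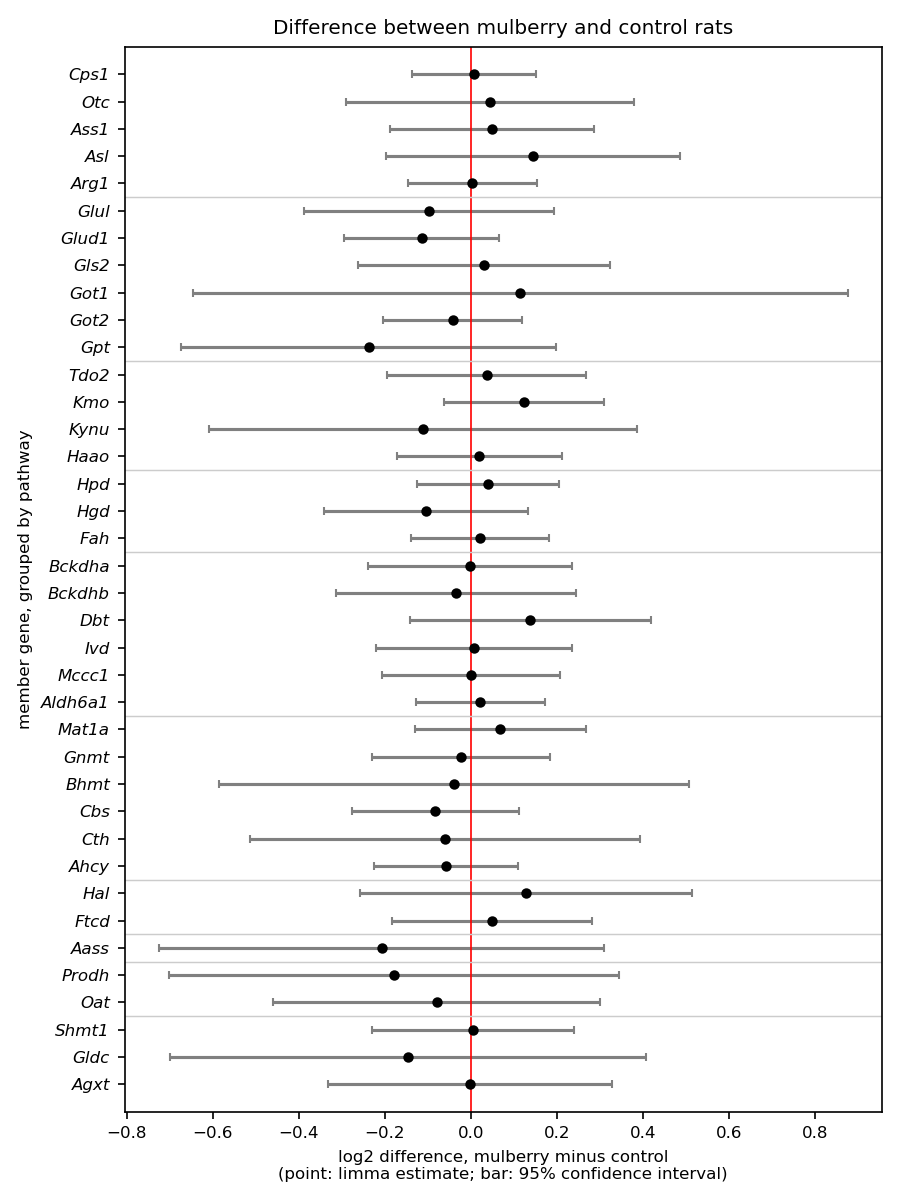
Differences between 5 mulberry and 5 control rats for the 38 genes, as log2 difference (mulberry minus control) on the x axis with 95% confidence intervals from limma; grey lines separate the pathways. All 38 intervals cross 0, and the widest belongs to Got1 (-0.65 to 0.87).

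The 5 urea cycle genes had higher means with mulberry by small amounts, and none passed the test. Cps1 encodes carbamoyl phosphate synthetase, which commits ammonia to the cycle inside mitochondria. Its intensity was 25932, 25944, 27256, 26522 and 26368 in control rats 1 to 5 and 29133, 23938, 25883, 27805 and 26085 in mulberry rats 1 to 5. The mulberry rats hold both the highest and the lowest value, and the log2 difference was +0.0060 ± 0.067 (SE, limma adjusted p = 0.9999; 95% interval -0.14 to 0.15). A second Cps1 probe set gave +0.017 ± 0.12. Asl, argininosuccinate lyase, had the largest difference of the cycle. Its control rats read 6892, 11089, 11962, 7534 and 7848 and its mulberry rats 10234, 10745, 8141, 11413 and 8698. Control rats 2 and 3 stood with the higher mulberry rats and control rats 1, 4 and 5 below them, so the groups overlapped, and the difference was +0.14 ± 0.16, or +0.16 ± 0.18 on the other Asl probe set. The Asl probe set used carries a suffix that marks probes shared by several transcripts.

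Arg1, arginase, releases urea from arginine. Its values were 27015, 26605, 27324, 28829 and 28201 in control rats and 28793, 26482, 26153, 31191 and 25967 in mulberry rats, where mulberry rat 4 was the highest of all. The Arg1 difference was +0.0033 ± 0.069. Otc, which joins carbamoyl phosphate to ornithine, averaged 15287 ± 3041 without and 15664 ± 2655 with mulberry (SD, n = 5 each; +0.045 ± 0.15), with control rat 3 the lowest of all at 10268. Ass1, the synthase that brings in the aspartate nitrogen, was at 24399 ± 2218 and 25440.4 ± 4335 (+0.048 ± 0.11), with mulberry rats 4 and 1 highest at 30607 and 29729. The shared sign of the 5 genes did not hold under other scalings, since Cps1 and Arg1 turned to -0.017 and -0.029 with quantile normalization and to -0.022 and -0.024 with a median shift.

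Genes of glutamine, glutamate and the aminotransferases had lower means with mulberry in 4 of 6 cases, and none passed. Glud1, glutamate dehydrogenase, frees ammonia from glutamate in mitochondria. Its intensity was 20237, 18652, 22893, 21762 and 20088 in control and 21724, 17622, 17601, 20267 and 18573 in mulberry rats. Mulberry rats 2, 3 and 5 lay under every control rat while mulberry rats 1 and 4 lay among them, and the difference was -0.11 ± 0.083 (-0.10 ± 0.070 on the second probe set). With quantile normalization the Glud1 difference was -0.13 ± 0.047 (limma adjusted p = 0.9999), and Glud1 was the single member with an unadjusted p under 0.05 there. The share of all genes under 0.05 in that fit is not given, so this count cannot be read as particular to the members. Glul, glutamine synthetase, captures the ammonia that escapes the cycle in cells around the central vein. It read 7372, 5909.9, 8347, 8410.1 and 6848 in control and 7026, 6424, 7833, 5192 and 8122 in mulberry rats, with mulberry rat 4 the lowest. Its difference was -0.098 ± 0.13, against +0.020 ± 0.19 and -0.013 ± 0.16 on its other probe sets.

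Got1 and Gpt each had a rat far from the others of its group. Got1, the cytosolic aspartate aminotransferase, stood at 2254, 2642, 3888, 2769 and 2651 in control rats and at 3009.8, 2234, 2008, 9269.7 and 2018 in mulberry rats. Mulberry rat 4 was far above all others, and the highest rat stood 4.62-fold over the lowest, the widest ratio among the 38 members. The log2 difference was +0.11 ± 0.35 with that rat and -0.29 ± 0.17 without it. Sds, serine dehydratase, a further enzyme that supplies carbon for glucose, was chosen here for its values: it stood at 16021 in mulberry rat 4 and between 2034 and 6371 in the other 9 rats. Its difference was +0.0028 with mulberry rat 4 and -0.44 ± 0.29 without it. Gpt, alanine aminotransferase, had the largest difference of any member. Its values were 7535, 8665, 9943, 9379.5 and 9132 in control and 8973, 4072, 7912, 10483 and 8025 in mulberry rats. Mulberry rat 2 read lowest and mulberry rat 4 highest, and the difference of -0.24 ± 0.20 became -0.017 ± 0.11 without mulberry rat 2. That same rat was the lowest of its group for the nuclear receptor gene Ppara, at 25.8 against 130.0 to 183 in the other mulberry rats. The reading of 25.8 lies under the intensity of 61.1 used as the filter on means, and a link with Gpt was not tested.

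Got2, the mitochondrial aspartate aminotransferase, varied little, between 12222 and 14581 over all 10 rats (-0.043 ± 0.075), and did not share the peak of Got1 in mulberry rat 4, where it read 12784. Gls2, the liver glutaminase, ranged from 4800.3 in control rat 3 to 7678 in control rat 2 (+0.031 ± 0.14). The 250 bases upstream of the RefSeq start of Got1 are given because this gene differed most between rats and because they hold 6 matches to a CCAAT box, in capitals (5′ to 3′, minus strand, chr1:252329872-252330121, build GRCr8).
Got1: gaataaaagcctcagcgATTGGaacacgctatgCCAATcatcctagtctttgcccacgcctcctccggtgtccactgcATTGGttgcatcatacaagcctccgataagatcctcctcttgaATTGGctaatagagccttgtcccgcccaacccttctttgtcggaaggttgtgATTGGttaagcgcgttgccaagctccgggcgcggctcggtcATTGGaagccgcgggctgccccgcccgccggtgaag
The match is a description of these letters, read on both strands, in a reference from another rat strain.

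**Figure D2:**
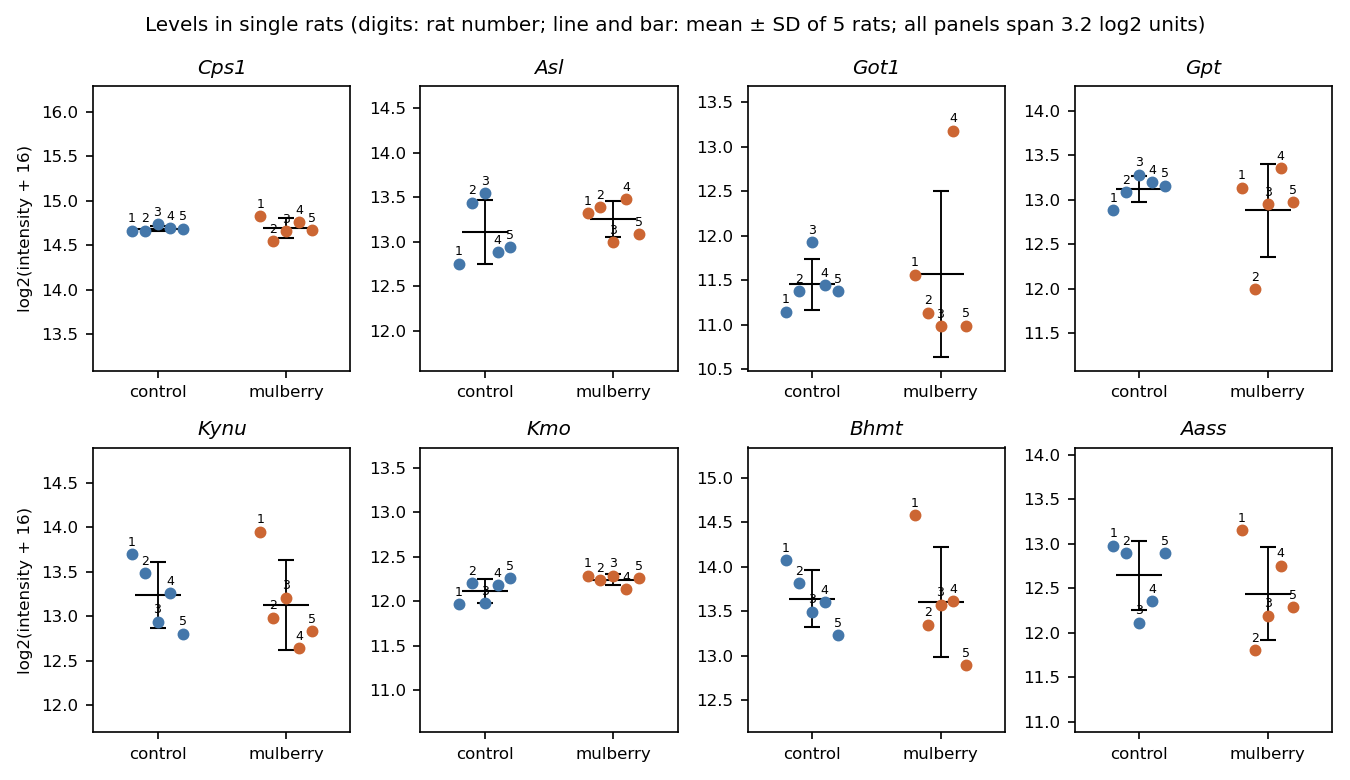
Level of 8 genes in each rat as log2(intensity + 16) on the y axis; points are rats with their number, and the line and bar are the mean and SD of 5 rats. Got1 has mulberry rat 4 far above the other rats, Gpt has mulberry rat 2 far below, and Cps1 and Kmo vary little.

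Genes of the kynurenine route, which degrades tryptophan, split into steady and variable members. Tdo2, tryptophan dioxygenase, carries out the first step. It read 26514, 23588, 34807, 29272 and 27256 in control and 28528, 27182, 26351, 34999 and 27564 in mulberry rats, so that 1 rat of each group, control rat 3 and mulberry rat 4, stood above the rest, and the difference was +0.037 ± 0.11. Kmo, kynurenine monooxygenase, had the smallest p of all members before adjustment (limma adjusted p = 0.9999). Its values were 3989.5, 4714, 4027, 4626 and 4892 in control and 4986, 4814, 4983, 4484 and 4899 in mulberry rats. Control rats 1 and 3 lay below all mulberry rats and the other 3 control rats among them, with a difference of +0.12 ± 0.086.

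Kynu, kynureninase, varied 2.48-fold between rats. Its control rats stood at 13266, 11427, 7845, 9786 and 7154 and its mulberry rats at 15827, 8089.6, 9466, 6379.7 and 7296. The difference was -0.11 ± 0.23, and -0.32 ± 0.18 without mulberry rat 1, the highest. Haao, which acts after kynureninase, was nearly flat, with 5577, 5725, 5969, 5769.8 and 5584 in control and 6119.6, 6223, 5964, 4740.0 and 6102 in mulberry rats. Here 3 mulberry rats were above every control rat and mulberry rat 4 was below every other rat, and the difference was +0.019 ± 0.089.

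The 3 tyrosine genes act in sequence on the way to fumarate. Hpd, the dioxygenase that acts first among these 3, was at 29740.4, 29658, 33972, 30975 and 29633 in control and 35582, 28097, 30067, 33357 and 31531 in mulberry rats. Mulberry rat 1 was the highest and mulberry rat 2 the lowest of the 10, with a difference of +0.040 ± 0.076. Hgd, homogentisate dioxygenase, was at 9233, 8687, 7979.9, 8409.8 and 6858 in control and 9326, 7998, 7589.7, 6719 and 6739.9 in mulberry rats. Mulberry rat 1 was highest and mulberry rats 4 and 5 lowest, with a difference of -0.10 ± 0.11. Fah, the last enzyme, averaged 14979 ± 1162 without and 15185 ± 813 with mulberry (SD, n = 5 each; +0.021 ± 0.074).

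The upstream sequences of Kynu and Hgd are given because these genes were high in the same rats, as described with the correlations, under every scaling tried. They are the 250 bases before the RefSeq start (5′ to 3′, build GRCr8; Kynu on the plus strand at chr3:48188036-48188285, Hgd on the minus strand at chr11:76643768-76644017). Capitals mark matches to any of the motifs searched in the members, on either strand. The CCAAT box was searched as CCAAT. The TATA box was searched as TATAAA, which binds the general transcription machinery. The letters for a C/EBP site, a family of liver factors, were TTGCNNAA. The core of a cAMP response element was read as TGACG, and the glucocorticoid receptor hexamer as TGTTCT.
Kynu: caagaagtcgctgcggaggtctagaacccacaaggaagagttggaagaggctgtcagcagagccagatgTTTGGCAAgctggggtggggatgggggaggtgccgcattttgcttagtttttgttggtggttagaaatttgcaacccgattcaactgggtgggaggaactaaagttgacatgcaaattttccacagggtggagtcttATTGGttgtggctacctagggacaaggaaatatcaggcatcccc
Hgd: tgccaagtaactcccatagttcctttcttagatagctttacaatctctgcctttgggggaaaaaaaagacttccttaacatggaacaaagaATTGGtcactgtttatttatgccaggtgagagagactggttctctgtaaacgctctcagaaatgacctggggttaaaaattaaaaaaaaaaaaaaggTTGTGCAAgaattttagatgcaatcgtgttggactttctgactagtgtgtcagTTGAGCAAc
Kynu held 1 CCAAT box and 1 C/EBP site, and Hgd held 1 CCAAT box and 2 C/EBP sites. No match overlapped another in the windows printed.

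Genes of branched-chain amino acid oxidation had higher means with mulberry in 4 of 6 cases, and none passed the test. Dbt, the transacylase core of the branched-chain ketoacid dehydrogenase, had the largest difference, with 2639, 2719.9, 2169, 2920.0 and 3383 in control and 2511, 2836, 3465, 3461 and 2914 in mulberry rats. Mulberry rats 3 and 4 were above every control rat but mulberry rat 1 was below 4 of them, and the difference was +0.14 ± 0.13. The subunits that decarboxylate the ketoacids, Bckdha and Bckdhb, were at -0.0030 ± 0.11 and -0.035 ± 0.13. Aldh6a1, which oxidises a product of valine, was at 15867, 16099, 15659, 16135 and 16801 in control and 18209, 15059.8, 16234, 16728 and 15671 in mulberry rats, with mulberry rat 1 highest and mulberry rat 2 lowest (+0.021 ± 0.069, and +0.070 ± 0.12 on its second probe set). A second Dbt probe set, too dim to be tested, had the opposite sign (-0.35). The leucine enzymes Ivd and Mccc1 were at +0.0068 ± 0.11 and +0.00048 ± 0.095.

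Genes of the methionine cycle had lower means with mulberry in 5 of 6 cases, and none passed the test. Cbs, cystathionine beta-synthase, sends homocysteine towards cysteine. It stood at 4406, 4267, 3741, 3867 and 4284 in control and 3814, 3599, 3743, 4511 and 3772 in mulberry rats. Mulberry rat 2 lay under every control rat and mulberry rats 1, 3 and 5 under every control rat but control rat 3, while mulberry rat 4 was the highest of all, and the difference was -0.083 ± 0.090. Mat1a, which makes S-adenosylmethionine in hepatocytes, was the member with the higher mean (+0.068 ± 0.092, or +0.0024 ± 0.083 without mulberry rat 4). Its values were 20738, 20224, 24871, 24181 and 23755 in control and 23534, 22743, 21148, 28521 and 23503 in mulberry rats, with mulberry rat 4 highest.

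Bhmt, which uses betaine to return homocysteine to methionine, spanned 3.22-fold. It read 17246, 14379.9, 11539.8, 12394 and 9578 in control and 24489, 10422, 12179.7, 12479.9 and 7610.1 in mulberry rats. The mulberry group held both the highest value, in rat 1, and the lowest, in rat 5, and its log2 SD was 0.62 against 0.32 in control rats. The difference was -0.040 ± 0.25. Cth, which forms cysteine, ranged from 6303 in mulberry rat 4 to 13991 in mulberry rat 1 (-0.061 ± 0.21). Gnmt, which spends surplus S-adenosylmethionine, and Ahcy, which cleaves its product, varied less, at -0.023 ± 0.096 and -0.058 ± 0.077.

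The histidine genes were both led by mulberry rat 1. Hal, histidase, was at 4253, 4247, 3682, 2817 and 3172 in control and 5708, 4604, 3547, 3449.5 and 2887 in mulberry rats. Ftcd, which passes the formimino group to folate, was at 12661, 11375, 11249, 9217 and 11151 in control and 14081, 11273, 11535, 9764 and 11021 in mulberry rats. In both genes control rat 4 was the lowest. The differences were +0.13 ± 0.18 for Hal, or -0.0065 without mulberry rat 1, and +0.048 ± 0.11 for Ftcd.

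Genes of lysine, proline and ornithine had lower means with mulberry and wide spreads. Aass, the first enzyme of lysine breakdown, was at 8071, 7590.5, 4421, 5243 and 7613 in control and 9123, 3570.5, 4672, 6902 and 4998 in mulberry rats. Mulberry rat 1 was the highest and mulberry rat 2 the lowest, and the difference was -0.21 ± 0.24, or -0.39 ± 0.21 without mulberry rat 1. Prodh, proline dehydrogenase, was at 3336, 4936, 2298, 2613 and 4269.6 in control and 2944, 1822, 3954, 3986 and 2683 in mulberry rats. Its difference of -0.18 ± 0.24 came to -0.0047 without mulberry rat 2, the lowest. Oat, ornithine aminotransferase, stood at 8737, 9859, 12840.2, 10842 and 8651 in control and 13199, 7825, 7099, 12408 and 8665 in mulberry rats, where rats 1 and 4 were high and rats 2 and 3 low (-0.079 ± 0.18).

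Genes of serine, glycine and glyoxylate did not pass either. Gldc, the decarboxylase of the glycine cleavage system, was at 1065, 1150.4, 488, 786 and 678 in control and 1111, 679.8, 898, 483 and 580.4 in mulberry rats, with a difference of -0.15 ± 0.26, which ran from -0.32 without control rat 3 to -0.0066 without mulberry rat 4. Its other probe sets, too dim to be tested, gave -0.78 and -0.074. Agxt, which clears glyoxylate, read 5096, 6662, 6381, 4726 and 3904 in control and 6515, 4886, 5738, 4359 and 4962 in mulberry rats. Both genes were high in control rat 2 and mulberry rat 1, and the Agxt difference was -0.0034 ± 0.15. Shmt1, the cytosolic serine hydroxymethyltransferase, averaged 4488 ± 646 without and 4481 ± 384 with mulberry (SD, n = 5 each; +0.0054 ± 0.11).

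**Figure D3:**
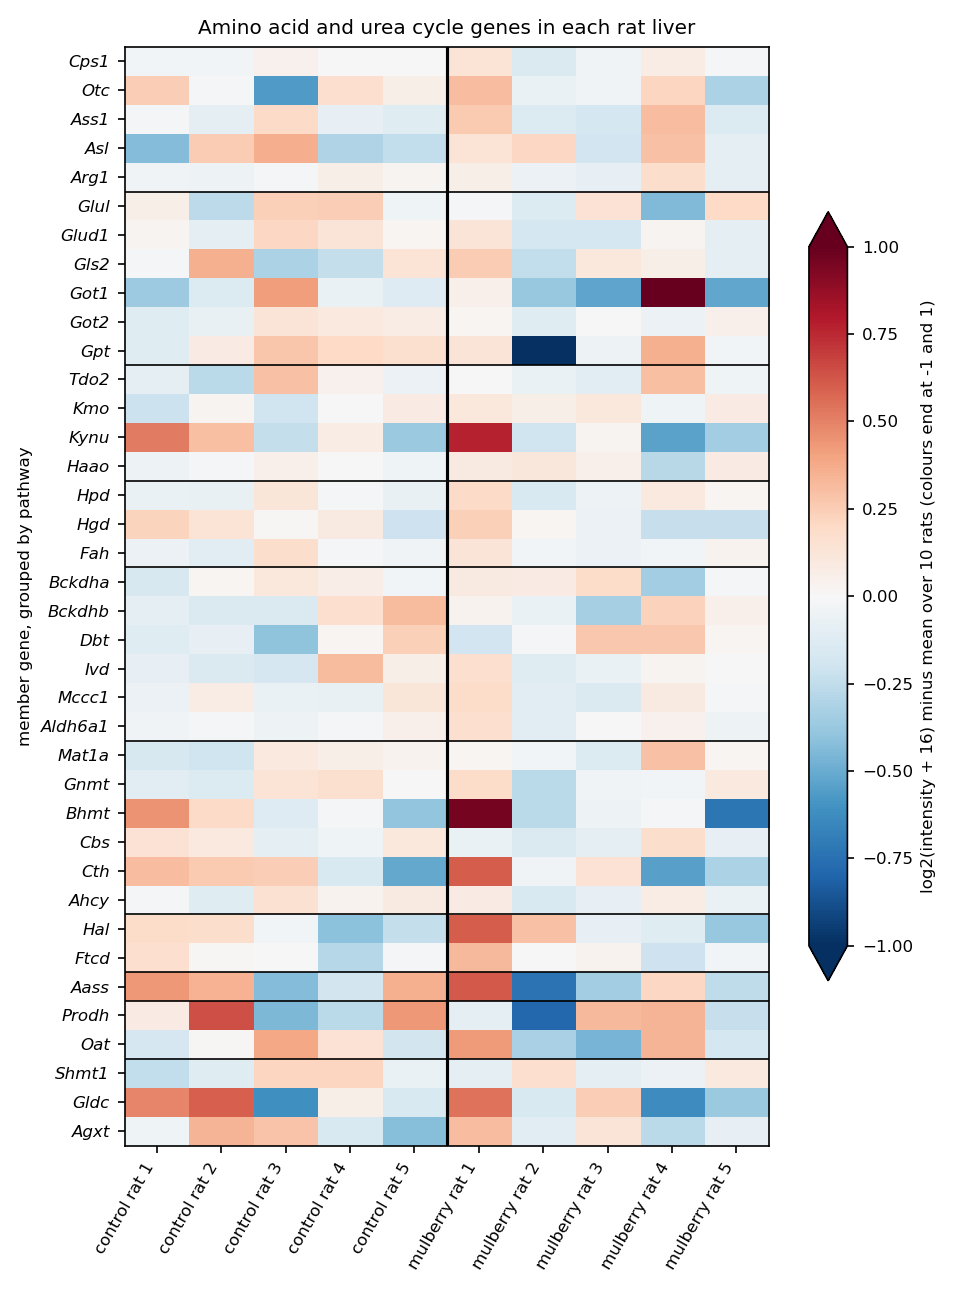
Log2(intensity + 16) of the 38 genes (rows, grouped by pathway) in each of the 10 rats (columns), as deviation from the gene's mean over all rats; red is higher and blue lower. Mulberry rat 1 is above the gene's mean for 33 of 38 genes and mulberry rat 2 for 8.

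Single rats held a large share of the extreme values. Mulberry rat 1 had the highest value for 15 of 38 members (39.5%), while it had the highest value for 8.68% of all genes tested and for 14.2% of the 1033 brightest genes. It was above the gene's mean for 33 of 38 members, and its median deviation was +0.14 over the members against +0.063 over the brightest genes. The summed intensity of the hepatocyte markers was 316539 in mulberry rat 1, 330939 in mulberry rat 4 and 324543 in control rat 3, against 262586 to 277299 in the other 7 rats. The part of these shifts in the members' values was not tested. Mulberry rat 2 had the lowest value for 9 members (23.7%, against 8.98% of all genes and 9.68% of the brightest) and a median deviation of -0.11 over the members. Control rat 3, which had the highest value for 36.9% of the brightest genes, had it for 13.2% of the members. With quantile normalization mulberry rat 1 was highest for 7 members in place of 15, and with a median shift it was highest for 15. These counts describe the arrays and carry no test.

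**Figure D4:**
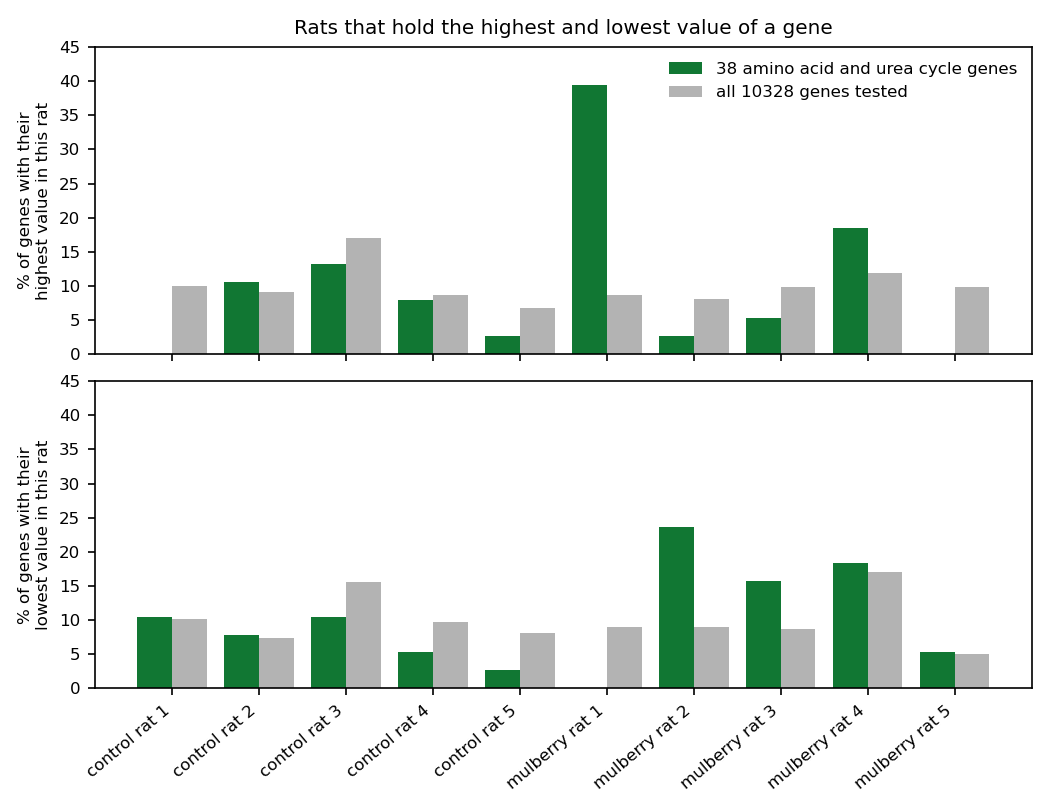
Share of genes, in percent, whose highest (upper panel) or lowest (lower panel) value over the 10 rats lies in each rat, for the 38 members in green and all genes tested in grey. Mulberry rat 1 holds 39.5% of the members' highest values and 8.68% of those of all genes.

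The spread within the mulberry group was larger than in the control group for 25 of 38 members (65.8%), against 47.0% of all genes tested. The median log2 SD of the members was 0.18 in control and 0.19 in mulberry rats, and over all genes, not matched for brightness, 0.23 and 0.22. Cps1 had SDs of 0.029 and 0.11, Haao of 0.040 and 0.16, Got1 of 0.29 and 0.93 and Gpt of 0.15 and 0.52, in control and mulberry rats in that order. The opposite order held for others, such as Kmo at 0.14 and 0.063 and Asl at 0.36 and 0.21. The count was 16 of 38 without mulberry rat 4, 20 with quantile normalization and 19 with a median shift. The difference in spread was not tested.

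Some members moved together from rat to rat. Over the 10 rats, 3 of 703 pairs of members passed an adjusted p of 0.05 (permutation test of Pearson's r with 100000 resamples, Benjamini-Hochberg over the 703 pairs), and 99 had an unadjusted p under 0.05. No such counts are given for pairs of other genes, so these cannot be read as particular to the members. Kynu and Hgd correlated at r = 0.92 (permutation p = 2e-04, adjusted p = 0.0469) and Spearman's rho = 0.95 (permutation p = 1.4e-04, adjusted p = 0.0492). Without the 2 rats farthest from the median of Kynu, r was 0.86, and it was 0.93 within control and 0.93 within mulberry rats. Both genes were high in mulberry rat 1 and control rats 1 and 2 and low in control rat 5 and mulberry rats 4 and 5. The r of this pair was 0.94 with quantile normalization and 0.85 with a median shift, past the threshold in both.

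The other pairs each failed under at least 1 scaling between arrays. Cps1 and Hpd had r = 0.92 (permutation p = 1.8e-04, adjusted p = 0.0469; rho = 0.79, permutation p = 0.00888, adjusted p = 0.18; r = 0.86 without 2 rats), with r = 0.47 after quantile normalization and 0.96 after a median shift. Haao and Cbs ran in opposite directions, with r = -0.84 (permutation p = 6e-05, adjusted p = 0.0422; rho = -0.89, permutation p = 0.00121, adjusted p = 0.107; r = -0.88 without 2 rats), and r = -0.47 with quantile normalization and -0.32 with a median shift. All values of a rat share 1 array and its scaling, so members are not independent of each other across rats. No pair passed without mulberry rat 2, mulberry rat 3 or mulberry rat 5 (0 pairs each), and 1 pair did without mulberry rat 4. Kynu and Hgd missed the threshold without control rat 5 (r = 0.91, adjusted p = 0.122) and without any of the 5 mulberry rats in turn (r = 0.89 to 0.93).

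**Figure D5:**
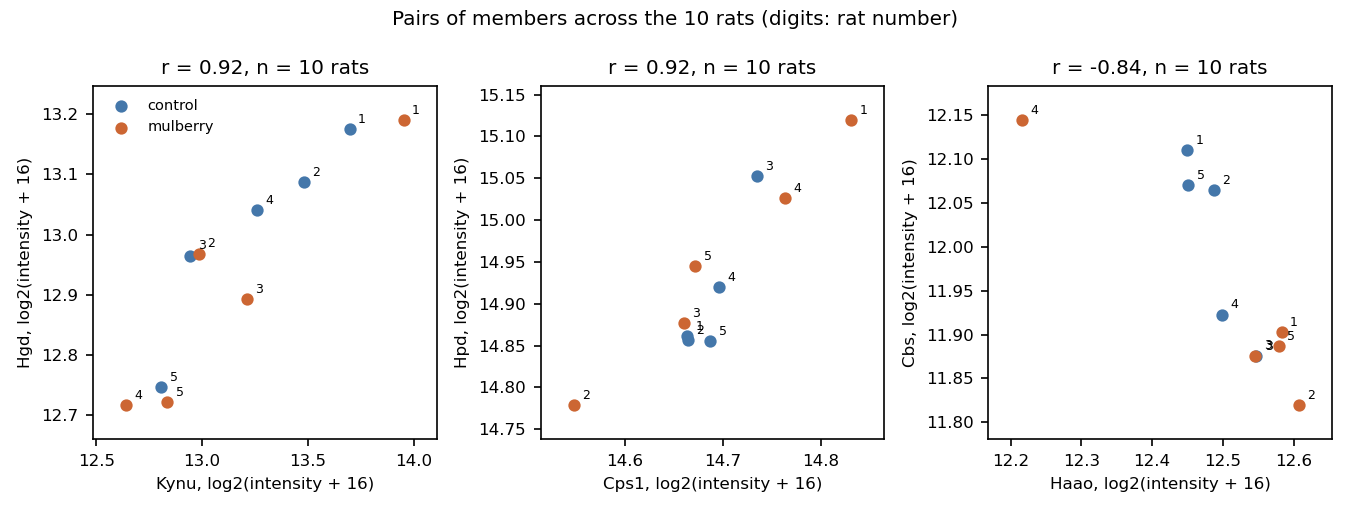
Log2(intensity + 16) of 3 pairs of genes in the 10 rats, with control rats in blue, mulberry rats in orange and the rat number beside each point. Kynu and Hgd are high in the same rats (r = 0.92), as do Cps1 and Hpd (r = 0.92), while Haao and Cbs run in opposite directions (r = -0.84).

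Promoter windows were matched for 33 of 38 members (36 windows; Arg1, Gpt, Bckdha, Hal and Prodh were not matched). The CCAAT box stood in 22 of the 36 windows (61.1%), against 34% of all 33469 windows in the table, and Got1 alone held 6. The C/EBP site stood in 4 windows (11.1%, against 9.22%), those of Aass, Ahcy, Hgd and Kynu. The TATA box stood in 4 (11.1%, against 12.9%), the cAMP core in 3 (8.33%, against 18.2%) and the glucocorticoid receptor hexamer in 5 (13.9%, against 17.5%). The last pair of motifs is bound by factors through which glucagon and glucocorticoids act. Windows were not matched for base composition, and some genes have several.

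Neighbouring genes of the same pathways were read from the same fit. Of 98 listed genes 81 were tested, 34 with a higher and 47 with a lower mean, and 0 passed an adjusted p of 0.05 with limma (1 at an unadjusted p under 0.05). Their median difference was -0.032. That gene was Aldh18a1, which makes the precursor of proline and ornithine. It read 82.5, 91.3, 74.6, 67.6 and 94.9 in control and 95.4, 114, 99.5, 127 and 118 in mulberry rats. All mulberry rats were above all control rats, by a narrow margin, and the difference was +0.37 ± 0.16 (limma adjusted p = 0.9999). It was the single neighbouring gene whose groups did not overlap, against 0.32% of all genes. Its probe set was dim, with means of 82.2 and 111 in control and mulberry rats against the filter level of 61.1. Over the alternatives its unadjusted limma p ran from 0.0095 without a variance trend to 0.082 without control rat 4.

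Among further enzymes, Mtrr, which restores methionine synthase, averaged 1279.8 ± 157 without and 1440.4 ± 36.2 with mulberry (SD, n = 5 each; +0.18 ± 0.10). Agmat, which hydrolyses agmatine, was at -0.13 ± 0.10 and the asparagine synthetase gene Asns at +0.23 ± 0.27. Kyat3, a kynurenine aminotransferase, was at +0.14 ± 0.099 and Acmsd, which diverts the route from NAD, at +0.26 ± 0.23. Dld, the shared dihydrolipoamide dehydrogenase, was at +0.14 ± 0.12 and Aldh7a1, of lysine breakdown, at -0.084 ± 0.072.

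Of 11 amino acid transporters 5 had a higher mean and 6 a lower one, with a median of -0.015. The glutamine and alanine transporter Slc38a2 was at -0.31 ± 0.20 and the aromatic amino acid transporter Slc16a10 at -0.30 ± 0.26. Of 15 regulators 7 were higher and 8 lower, with a median of -0.010. Cebpb, a C/EBP factor active in fasting and the acute phase, averaged 4330.3 ± 666 without and 3519 ± 843 with mulberry (SD, n = 5 each; -0.32 ± 0.17, or -0.18 ± 0.14 without mulberry rat 1). Ppara was at 184 ± 36.7 and 133 ± 63.2 (-0.59 ± 0.36, or -0.17 ± 0.17 without mulberry rat 2).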

How the data were processed

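The values are linear intensities, as the authors deposited them, for 31099 probe sets on 10 arrays. The submitters' processing notes name MAS5 and affy without a version or role. The mean intensity after trimming 2% of values at each end was 500.0 on every array, so intensities were used as already scaled. Groups and rat numbers came from the sample titles.

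Log2(intensity + 16) was computed, which understates differences of dim probe sets. After removal of 57 control probe sets and of those with a mean not above its 40th percentile (an intensity of 61.1), there were 18625 of 31042 probe sets to fit with limma 3.58.1 in R 4.3.3 (two-sided, variance trend) and adjusted by Benjamini-Hochberg over all of them. Group means are linear intensity ± SD; differences are log2 ± SE. A gene's level is not comparable with another gene's, and the number of arrays limits the precision. The script was tested on simulated data. Symbols came from the platform annotation, and all 38 matched RefSeq genes by Entrez identifier (GRCr8).

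Every member is named. Values of each rat are given for the member with the smallest unadjusted p and with the highest mean level per pathway, for all members of pathways with fewer than 3, for Cps1, Glul, Oat and Tdo2, and for members set apart by 1 rat; of each neighbouring list the 2 genes with the smallest p are named. The members, lists and rule were chosen with earlier results of these data known. The correlations, promoter motifs and counts of extremes were added after the data were seen. All else ran in Python 3.11.15 (scipy 1.17.1, numpy 2.4.6, pandas 2.3.3, figures by matplotlib 3.10.9). Alternatives were other pseudocounts, filters, scalings and variance models, the rat number as a block, the mean over a gene's probe sets, and each array left out.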

Additional observations from a re-analysis of the deposited data

Results flagged for a closer look

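In 76 groups of 5 rats (38 members in control and in mulberry rats), 4 held a rat farther from the others than Dixon's 95% limit of 0.71 of the group's range allows, where chance gives about 1 in 20. In all 4 groups that rat was mulberry rat 4. Over all genes tested, mulberry rat 4 held the highest value for 11.9% and the lowest for 17.0%, against 18.4% each for the members. The share of such groups over all genes is not given here. Mulberry rat 4 was the highest of its group for Got1 (9269.7, against 2008 to 3009.8 in the other mulberry rats), for Tdo2 (34999, against 26351 to 28528) and for Cbs (4511, against 3599 to 3814), and the lowest for Haao (4740.0, against 5964 to 6223).

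Among the 13 named neighbouring genes (26 groups), 4 groups did so, 2 of them of Sds, a gene chosen for its values. Mtrr was highest in mulberry rat 4 (1504, against 1418.5 to 1436), and Ppara was lowest in mulberry rat 2 (25.8, against 130.0 to 183). This Ppara reading lies under the filter level of 61.1. Sds was highest in mulberry rat 4 (16021, against 3083 to 4087 in the other mulberry rats) and lowest in control rat 1 (2034, against 5139 to 6371 in the other control rats).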

How the results depend on the processing

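No member, neighbouring gene or probe set passed an adjusted limma p of 0.05 under any alternative run, and the smallest adjusted p was 0.113, over all probe sets, without control rat 3. With the members' differences so small, their signs were unstable. Leaving out 1 array at a time kept the sign in 310 of 380 values and turned it in 70, over 25 of 38 members. The other alternatives kept it in 299 of 311 values. The cause was not tested. Only intensities were used, so signal over background was not measured, and 30 of 38 members lay among the brightest 10% of genes.

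Quantile normalization gave -0.017 for Cps1, -0.029 for Arg1, -0.0011 for Mccc1 and 0.0044 for Agxt. A shift to a common median gave -0.022 for Cps1, -0.024 for Arg1, -0.0081 for Haao, -0.0062 for Fah, -0.021 for Ivd, -0.027 for Mccc1, -0.0063 for Aldh6a1 and -0.022 for Shmt1. Under that shift 12 members had a higher mean and 18 pairs of members were correlated. The shift moves all genes of an array by the same amount, and no such counts are given for other genes. With deviations from the group means 8 pairs were correlated, and with quantile normalization mulberry rat 1 was highest for 7 members.

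Over the arrays left out in turn, the count of higher means ran from 8 to 23, that of correlated pairs from 0 to 6 and that of members with the larger SD in mulberry rats from 16 to 30. The log2 difference ran from -0.028 to 0.043 for Cps1, from -0.092 to 0.13 for Otc, from -0.022 to 0.10 for Ass1, from -0.040 to 0.026 for Arg1, from -0.17 to 0.0010 for Glul and from -0.046 to 0.12 for Gls2. It ran from -0.29 to 0.26 for Got1, from -0.034 to 0.11 for Tdo2, from -0.32 to 0.0085 for Kynu, from -0.0058 to 0.092 for Haao, from -0.0024 to 0.083 for Hpd and from -0.0087 to 0.067 for Fah. For branched-chain genes it ran from -0.050 to 0.084 (Bckdha), -0.097 to 0.045 (Bckdhb), -0.035 to 0.088 (Ivd), -0.045 to 0.036 (Mccc1) and -0.018 to 0.051 (Aldh6a1). For methionine genes it ran from -0.072 to 0.042 (Gnmt), -0.285 to 0.14 (Bhmt) and -0.22 to 0.068 (Cth). For the rest it ran from -0.0065 to 0.24 (Hal), -0.026 to 0.11 (Ftcd), -0.20 to 0.027 (Oat), -0.056 to 0.059 (Shmt1) and -0.11 to 0.082 (Agxt). The other 13 members kept their sign, but the size moved: from 0.053 to 0.25 for Asl, from -0.36 to -0.017 for Gpt, from 0.055 to 0.21 for Dbt, from 0.0024 to 0.11 for Mat1a, from -0.39 to -0.049 for Aass, from -0.31 to -0.0047 for Prodh and from -0.32 to -0.0066 for Gldc. Of 13 neighbouring genes Sds turned its sign, with -0.025 under the median shift and a range from -0.44 to 0.16 over the arrays left out.

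The sample titles number the rats 1 to 5 in both groups. Same-numbered rats correlated at -0.33 to 0.096 in their deviations from the group means, and rats of different numbers at -0.27 to 0.40. Of 10 rats, 2 correlated best with their own number. Whether the numbers mark a pairing cannot be told from these values, and the main fit used none. With the replicate number as a block, 0 members passed, 286 probe sets had an unadjusted p under 0.05 and the median difference over members was 0.0019.

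The correlation, spread, extreme-value and neighbouring-gene alternatives were chosen after seeing the data.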
